A study of Mus musculus with 6 samples.

Results

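The 51 genes described here are cell cycle and mitosis genes, 40 that act in mitosis and cytokinesis and 11 that act in DNA replication. They were taken from 20659 gene symbols measured in mouse ventricular myocardium and were read by 66 of 39429 probes, with more than 1 probe for 11 of them. The list was picked because its genes moved in opposite directions with calorie restriction (CR) at 15 and 22 months of age, so the differences between diets at these ages are given as a description and nothing is tested with them. All mice were male C57BL/6J without any transgene named in the labels. In 3 ad libitum (AL) groups, chow was freely available from an age of 3, 12 or 19 months to 6, 15 or 22 months (young, middle-aged and old). In the corresponding 3 CR groups, intake was lowered in steps over the first weeks and then held at 60% of that of AL mice until the end of the 12 weeks. Ventricular tissue of a group, from 6 mice per the methods, was pooled before RNA extraction, so each of the 6 groups was 1 pool on 1 single-dye Agilent array and no spread between mice could be measured.

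A dividing cell copies its chromosomes in S phase, with the MCM helicase, the PCNA clamp and the enzymes that make nucleotides, and then separates the copies in mitosis under the control of cyclins, CDK1 and the Polo and Aurora kinases. Most of these genes are silent in resting cells, where the DREAM repressor holds them off through promoter elements named CHR and E2F sites, and they are switched on as cells enter the cycle. Adult cardiomyocytes have largely left the cell cycle, and dividing cells of the adult ventricle are mostly fibroblasts, endothelial cells and immune cells. Because whole ventricle was measured, fewer cells of a type and less RNA per cell cannot be told apart in any value below.

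For each direction, promoters are shown of the 3 members with the largest difference and an entry in the promoter table. They were searched for the CHR and E2F sites named above for DREAM. The CCAAT box, which was not named there, was searched for as well. Windows were taken from the RefSeq promoter table of the mouse assembly GRCm38.p6, which held an entry for 44 of the 51 members. Capitals mark a CHR (TTTGAA, with TTTAAA as its other form), a CCAAT box (CCAAT) or an E2F site (TTTGGCGC, TTTCGCGC, TTTGGCGG or TTTCCCGC) on either strand, and 2 of the 47 member promoters held elements of different kinds that overlapped. The first set holds the members with the largest CR excess at 15 months, which are Prc1 (the first of its 2 entries), Cdca3 and Cenpe.
Prc1, chr7:80294201-80294500, + strand: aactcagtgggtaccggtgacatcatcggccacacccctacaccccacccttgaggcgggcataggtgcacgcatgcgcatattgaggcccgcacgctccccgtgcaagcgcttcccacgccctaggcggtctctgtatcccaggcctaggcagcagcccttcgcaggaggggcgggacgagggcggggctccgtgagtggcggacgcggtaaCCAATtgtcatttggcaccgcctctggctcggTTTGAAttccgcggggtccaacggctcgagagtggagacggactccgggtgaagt
Cdca3, chr6:124829926-124830225, + strand: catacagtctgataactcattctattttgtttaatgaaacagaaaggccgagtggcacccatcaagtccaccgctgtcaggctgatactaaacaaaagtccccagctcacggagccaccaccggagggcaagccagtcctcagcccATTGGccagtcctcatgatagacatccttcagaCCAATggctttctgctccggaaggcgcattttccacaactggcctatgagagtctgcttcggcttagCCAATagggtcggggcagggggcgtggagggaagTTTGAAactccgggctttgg
Cenpe, chr3:135212313-135212612, + strand: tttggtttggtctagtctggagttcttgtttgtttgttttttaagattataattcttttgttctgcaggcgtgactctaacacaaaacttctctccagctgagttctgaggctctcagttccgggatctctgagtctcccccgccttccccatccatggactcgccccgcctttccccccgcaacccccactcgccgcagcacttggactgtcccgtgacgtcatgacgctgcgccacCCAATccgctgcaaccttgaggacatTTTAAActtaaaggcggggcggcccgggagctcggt
In each of these windows a CHR and at least 1 CCAAT box were found, with the CHR last, near the annotated start.

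The second set holds the members with the largest deficit with CR at 22 months, Nek2, Plk1 and Kif2c.
Nek2, chr1:191821223-191821522, + strand: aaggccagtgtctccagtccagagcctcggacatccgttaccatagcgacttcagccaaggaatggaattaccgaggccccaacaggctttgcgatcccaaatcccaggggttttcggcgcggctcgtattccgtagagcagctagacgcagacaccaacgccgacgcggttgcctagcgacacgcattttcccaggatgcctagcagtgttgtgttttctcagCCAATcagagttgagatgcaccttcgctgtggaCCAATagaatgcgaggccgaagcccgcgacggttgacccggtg
Plk1, chr7:122159185-122159484, + strand: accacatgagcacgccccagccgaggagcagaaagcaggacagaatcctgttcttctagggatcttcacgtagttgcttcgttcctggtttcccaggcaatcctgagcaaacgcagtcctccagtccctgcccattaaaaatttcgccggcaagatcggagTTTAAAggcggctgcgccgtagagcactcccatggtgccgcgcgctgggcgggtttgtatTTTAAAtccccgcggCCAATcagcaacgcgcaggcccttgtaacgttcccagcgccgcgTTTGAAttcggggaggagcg
Kif2c, chr4:117178723-117179022, - strand: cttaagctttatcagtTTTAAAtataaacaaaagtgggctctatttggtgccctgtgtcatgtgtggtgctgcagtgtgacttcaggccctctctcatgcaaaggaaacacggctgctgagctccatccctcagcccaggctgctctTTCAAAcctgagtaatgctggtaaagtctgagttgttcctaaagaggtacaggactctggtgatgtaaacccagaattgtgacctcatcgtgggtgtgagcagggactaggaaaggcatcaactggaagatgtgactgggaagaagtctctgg
Plk1 held 3 CHR matches and 1 CCAAT box, Kif2c held 2 CHR matches and no CCAAT box, and Nek2 held 2 CCAAT boxes and no CHR match. Mcm6, a helicase subunit whose level hardly differed between diets, is shown for comparison because its window held 3 matches to the E2F site, 2 of them overlapping on opposite strands, and no CHR.
Mcm6, chr1:128359656-128359955, - strand: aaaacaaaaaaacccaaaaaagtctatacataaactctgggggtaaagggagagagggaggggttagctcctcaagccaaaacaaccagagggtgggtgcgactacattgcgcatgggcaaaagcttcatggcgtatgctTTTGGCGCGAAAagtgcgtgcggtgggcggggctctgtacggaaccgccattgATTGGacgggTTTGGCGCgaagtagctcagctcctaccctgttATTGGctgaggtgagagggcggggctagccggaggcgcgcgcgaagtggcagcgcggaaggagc
Of the members with a promoter entry, 75% held a CHR, against 30.6% of the 27025 genes in the table. A CCAAT box was found in 77.3% of members and 41.1% of all genes, and an E2F site in 13.6% of members and 2.70% of all genes. By class, a CHR was present in 82.9% of the mitosis genes and 44.4% of the replication genes, an E2F site in 5.71% and 44.4%, and a CCAAT box in 77.1% and 77.8%. A CHR was found in 13 of the 14 members with an entry that were at least 2-fold higher with CR at 15 months, and in 6 of the 10 with an entry that were at least 2-fold lower at 22 months, and none of either set held an E2F site of these letters. These are matches of letters in a short window and say nothing of what binds there.

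Levels are given as log2 of a probe's processed signal over the 75th percentile of its array, and differences as the CR level minus the AL level, so that a difference of 1 is a 2-fold excess with CR. The number after ± is the spot error. It is an error of the CR minus AL difference, computed from the spread of replicated spots of such brightness on both arrays. It shrinks with the number of spots and probes averaged. It holds nothing of the disagreement between probes of a gene, or of the variation between mice or between pools. The young arrays were much dimmer than the others. Their 75th percentile was at a signal of 29.3 with AL and 23.1 with CR, against 381 and 199 at 15 months and 299 and 266 at 22 months. Of the probes on the young arrays, 36.0% and 33.9% were well above background. The share was 77.1% with AL and 61.6% with CR at 15 months, and 71.3% and 69.5% at 22 months. By scan date, the only batch label read here, both old arrays differed from the other 4. The diets were thus compared within a scan date at each age, whereas scan date and age cannot be told apart between 15 and 22 months.

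At 15 months, 44 members were well above background in both pools, and 15 of them were at least 2-fold higher with CR. Over all measured genes the share that was 2-fold higher was 2.16%, and the choice of the list used this contrast, so nothing is read from the count. Here and below, all genes include features without a matched gene symbol, 32451 named or unnamed features before the background filter. Only Nek2 was at least 2-fold lower, where 2.62% of all genes were. The median difference of the 33 measured mitosis genes was 0.54 and that of the 11 replication genes 0.20, beside 0.09 over all genes. At 22 months, 45 members were measured in both pools and none was at least 2-fold higher with CR, beside 1.9% of all genes. The count of members at least 2-fold lower was 11, beside 3.99% of all genes, and it was 4 when the background was corrected with the normexp model, which adds an offset that draws dim signals together. The median difference was -0.85 over 34 mitosis genes and 0.08 over 11 replication genes, beside 0.11 over all genes. With the normexp model the mitosis median at 22 months was -0.38.

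**Figure D1:**
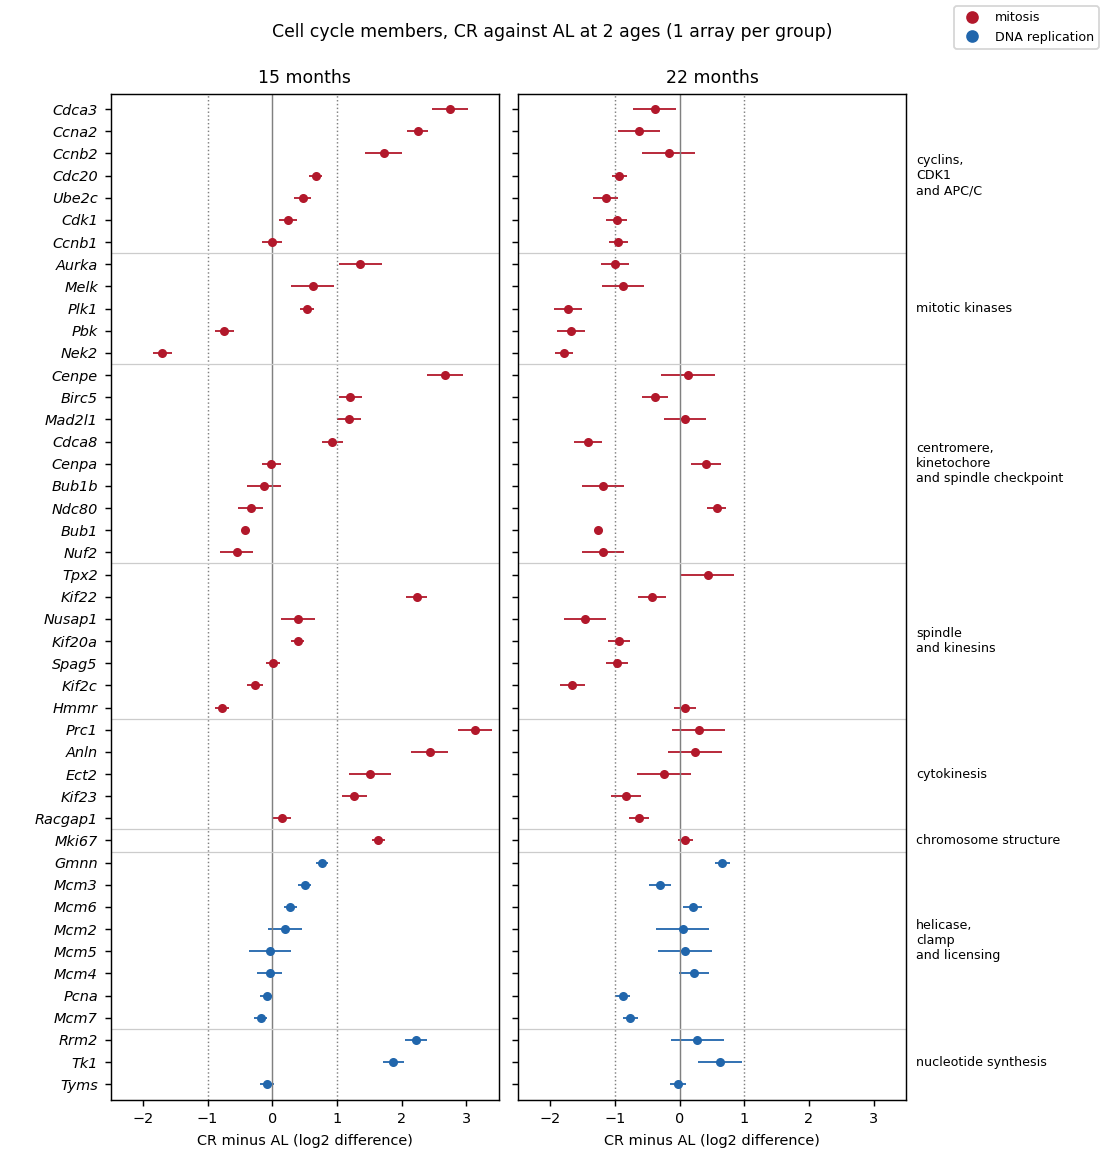
Difference between CR and AL (log2, horizontal axis) at 15 and 22 months for each member measured at either age, grouped by role, with mitosis genes in red and replication genes in blue. Points are 1 array against 1 array, bars are the spot error, dotted lines mark 2-fold, and the 5 cytokinesis genes all sit to the right of 0 at 15 months while the 5 mitotic kinases all sit to the left at 22 months.

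Of 44 members measured at both ages, 19 were higher with CR at 15 months and lower at 22 months at any size, a direction held by 16.9% of all genes. In both ages 10 members were higher, 10 were lower in both, and 5 were lower at 15 and higher at 22 months. Aurka alone was at least 2-fold higher at 15 months and at least 2-fold lower at 22 months, which is 6.67% of the 15 members in the first set and 9.09% of the 11 in the second. Over all genes 10 were in both sets, 2.94% of 340 and 1.33% of 751, so a small overlap was not particular to the members. The 15 members that were 2-fold higher at 15 months had a median difference of -0.17 at 22 months, between -1.00 and 0.62, with 8 of them below 0. The 11 members that were 2-fold lower at 22 months had a median difference of -0.13 at 15 months, between -1.70 and 1.36, with 6 of them below 0. The array on which a member was highest was also counted, as a description, since the list was picked on these arrays. Among 52 member probes that were well above background on all 4 arrays of 15 and 22 months, 20 were highest in the 15-month CR pool and 25 in the 22-month AL pool, and 4 and 3 in the 15-month AL and 22-month CR pools. Over 23733 such probes of any gene, these arrays held the highest level for 35.5%, 21.0%, 19.1% and 24.4%.

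**Figure D2:**
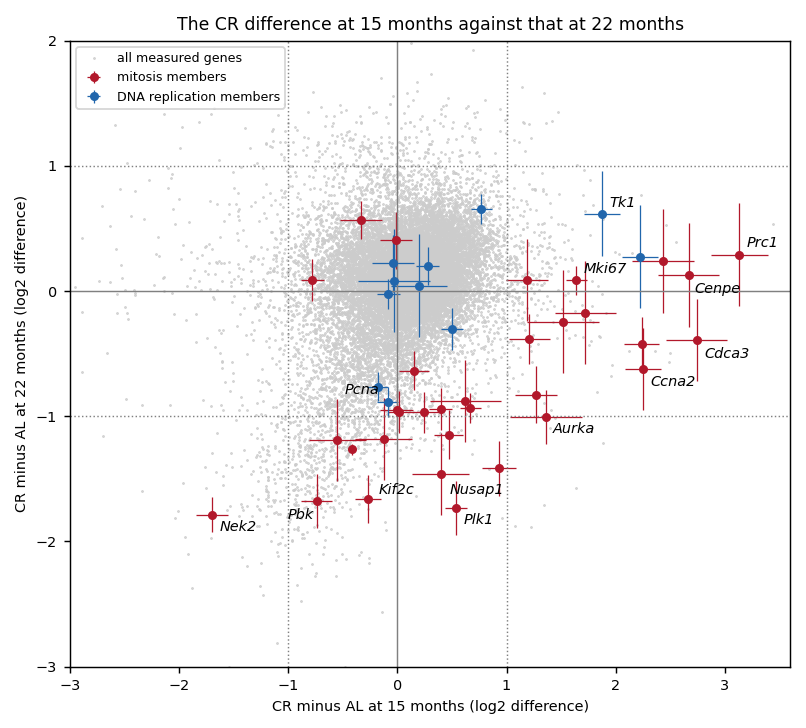
Difference between CR and AL at 15 months (horizontal axis, log2) against that at 22 months (vertical axis, log2), with mitosis members in red, replication members in blue and all genes measured at both ages in grey; bars are the spot error, dotted lines mark 2-fold, and genes beyond the axes are not drawn. Prc1, Cdca3 and Cenpe lie far to the right near 0 on the vertical axis, Plk1, Pbk and Nek2 lie low, and Aurka is the member at the corner of both thresholds.

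Of the 5 cytokinesis genes, 4 were at least 2-fold higher with CR at 15 months, beside 2.16% of all genes. Their median difference was 1.51. None was past 2-fold at 22 months, where the median was -0.24. The list was picked on these contrasts, so nothing is read from the counts by role, here or below. Prc1, which bundles the microtubules of the spindle midzone, had levels of -3.04 with AL and 0.10 with CR at 15 months and of -3.05 and -2.76 at 22 months. It was thus low in 3 of the 4 pools and high in the middle-aged CR pool, with differences of 3.13 ± 0.26 (8.78-fold) at 15 months and 0.29 ± 0.41 at 22 months. Anln, the anillin scaffold of the contractile ring, followed the same course, at -3.54 and -1.11 with AL and CR at 15 months and -4.18 and -3.94 at 22 months, with differences of 2.43 ± 0.28 and 0.24 ± 0.41. Ect2, the exchange factor that activates RhoA at the division site, was at -3.81 and -2.30 at 15 months and at -3.36 and -3.61 at 22 months, which gave 1.51 ± 0.33 and -0.24 ± 0.41. Kif23, the kinesin of the centralspindlin complex, stood at -2.22 and -0.96 at 15 months and -1.47 and -2.30 at 22 months, and was the member of this group with the most distinct deficit in the old CR pool, -0.83 ± 0.23 after 1.27 ± 0.19 at 15 months. Racgap1, the partner of Kif23 in centralspindlin, differed by only 0.15 at 15 months and by -0.63 at 22 months, where its probes gave -1.28 and 0.01.

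Cyclins and their partners were split between the ages. Cdca3, an adaptor that promotes entry into mitosis, was at -3.82 with AL and -1.07 with CR at 15 months and at -2.16 and -2.55 at 22 months. Its difference of 2.74 ± 0.28 (6.70-fold) at 15 months was the second largest of all members, and it was -0.39 ± 0.33 at 22 months. Ccna2, the cyclin of S phase and early mitosis, had levels of -2.52 and -0.27 at 15 months and of -1.79 and -2.42 at 22 months, with differences of 2.25 ± 0.16 and -0.63 ± 0.33. Ccnb2, a B-type cyclin that activates CDK1, was at -2.80 and -1.08 at 15 months and at -2.76 and -2.93 at 22 months, so that only the middle-aged CR pool was high and the differences were 1.72 ± 0.28 and -0.17 ± 0.41. Ube2c, which charges the anaphase-promoting complex with ubiquitin, was read by 2 probes. They stood at -1.15 and -1.87 with AL against -0.70 and -1.38 with CR at 15 months, and at -0.99 and -1.03 against -1.59 and -2.72 at 22 months, with mean differences of 0.47 ± 0.14 and -1.15 ± 0.19. All 7 genes of this role were lower with CR at 22 months, with a median of -0.93.

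Ccnb1 and Cdk1, which together form the kinase that drives mitosis, did not reach 2-fold at either age as means over their measured probes. The 3 probes of Ccnb1 were at -1.68, -2.43 and -2.97 with AL and -2.80, -1.23 and -3.08 with CR at 15 months, and they disagreed in direction, at -1.12, 1.21 and -0.11. At 22 months they stood at -0.72, -1.24 and -1.72 with AL and at -2.19, -1.98 and -2.36 with CR, and all 3 were lower with CR, for a mean of -0.95 ± 0.15. The brightest probe of Cdk1 had levels of -0.91 and -0.36 at 15 months and of 0.87 and -0.52 at 22 months. A dimmer probe of Cdk1 stood at -2.65 and -2.72 and then at -0.33 and -1.64, so that the old AL pool was the highest by both. These 2 probes differed by -1.39 and -1.31 at 22 months, both past 2-fold. Another, near-background probe of Cdk1 was measured at 22 months but not at 15 months, and gave -0.21 ± 0.41. The mean of Cdk1 was thus 0.24 ± 0.14 at 15 months, and -0.97 ± 0.16 at 22 months with the dim probe included. Cdc20, the activator of the anaphase-promoting complex, differed by 0.67 at 15 months and, close to the means of Ccnb1 and Cdk1, by -0.93 at 22 months.

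The mitotic kinases were the group with the lowest median difference at 22 months, -1.67 over 5 genes. Of these, 4 were at least 2-fold lower with CR, beside 3.99% of all genes. Plk1, the Polo-like kinase that acts at centrosomes and kinetochores, was at -1.00 with AL and -0.46 with CR at 15 months and at 0.50 and -1.23 at 22 months. The old AL pool held its highest level, and the difference passed from 0.54 ± 0.10 at 15 months to -1.73 ± 0.22 (3.32-fold lower with CR) at 22 months. Nek2, a kinase that separates the centrosomes, was lower with CR in both age groups, at 0.51 and -1.19 at 15 months and at 1.42 and -0.37 at 22 months. Its differences were -1.70 ± 0.15 and -1.79 ± 0.14, and at 6 months, where its probe was also well above background, it was at -0.24 and 0.23. Pbk, a kinase active in mitosis, was at -0.97 and -1.71 at 15 months and at 0.22 and -1.45 at 22 months, with differences of -0.74 ± 0.15 and -1.67 ± 0.22. Aurka, the Aurora kinase of centrosomes and spindle poles, had its lowest level of these 4 pools in the middle-aged AL pool, -3.35 against -1.99 with CR, and its highest in the old AL pool, -1.21 against -2.22. The differences of 1.36 ± 0.33 and -1.00 ± 0.22 made it the one member past 2-fold in opposite directions, and at 22 months it lay on the 2-fold limit and stayed past it under 5 of 8 alternative settings. Melk, the remaining measured kinase, gave 0.62 and -0.88.

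**Figure D3:**
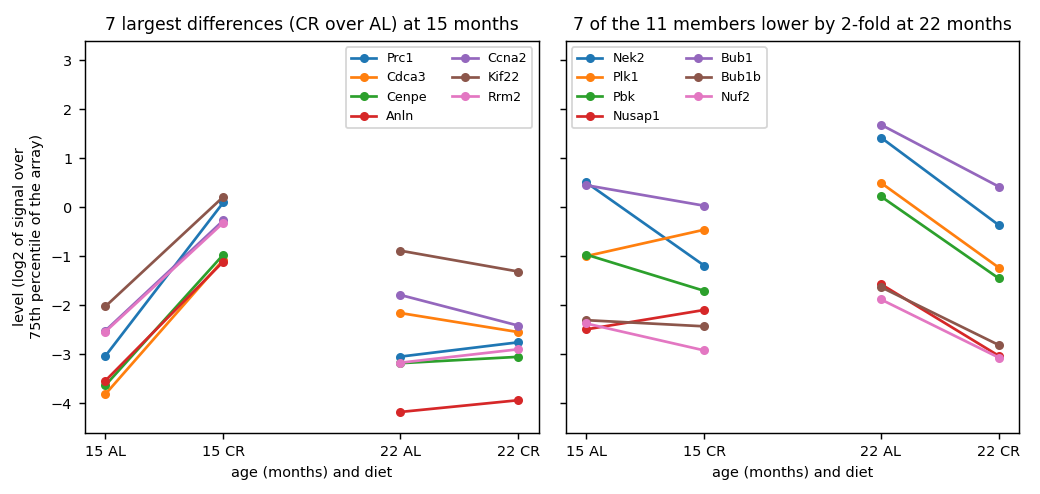
Level (log2 of signal over the 75th percentile of the array, vertical axis) of members with 1 probe well above background in the 4 pools of 15 and 22 months, with 1 line per gene and age. On the left, the 7 members with the largest difference at 15 months are raised in the 15-month CR pool; on the right, 7 of the 11 members at least 2-fold lower with CR at 22 months are highest in the 22-month AL pool; both sets were chosen by these differences, and each point is 1 array without replicate.

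Genes of the centromere, kinetochore and spindle checkpoint moved apart from each other. Cenpe, the kinesin that carries chromosomes from the kinetochore, was at -3.64 with AL and -0.97 with CR at 15 months and at -3.18 and -3.05 at 22 months. Its differences of 2.67 ± 0.28 and 0.13 ± 0.41 were those of a gene that stood out in the middle-aged CR pool alone. Mad2l1, the checkpoint protein that holds back Cdc20, had 1 probe measured at both ages, at -2.29 and -0.98 at 15 months and at -2.45 and -2.37 at 22 months, and over its measured probes it differed by 1.19 ± 0.19 and 0.09 ± 0.33. Birc5, or survivin, was read by a pair of measured probes that did not match at 15 months. One stood at -2.37 and -0.09 and differed by 2.28 ± 0.16, and the other at -3.09 and -2.95 and differed by 0.14 ± 0.33, which gave a mean of 1.21 ± 0.18 at 15 months. At 22 months the probes were at -1.66 and -2.49 with AL and -2.11 and -2.81 with CR, with a mean difference of -0.38.

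Other genes of this role were lower with CR at 22 months. Bub1, a checkpoint kinase read by a probe with 10 spots and therefore with the smallest spot error, was at 0.45 and 0.03 at 15 months and at 1.69 and 0.42 at 22 months, with differences of -0.42 ± 0.03 and -1.26 ± 0.04. Bub1b, its partner in the checkpoint, was at -2.31 and -2.43 and then at -1.63 and -2.81, with differences of -0.13 ± 0.26 and -1.18 ± 0.33. Nuf2, a subunit of the NDC80 complex that binds microtubules, stood at -2.37 and -2.92 and at -1.88 and -3.07, with differences of -0.55 ± 0.26 and -1.19 ± 0.33. In the same complex, Ndc80 differed by -0.33 and 0.57, the opposite of Nuf2 at 22 months, and Cenpa, the centromeric histone, by -0.01 and 0.40. Cdca8, or borealin, which belongs with survivin to the chromosomal passenger complex, had probes that pointed in opposite directions at 15 months. One went from -3.53 with AL to -0.99 with CR, and the other from -0.79 to -1.47, differences of 2.54 and -0.69. Only the latter probe was measured in both old pools, at -0.16 and -1.58, a difference of -1.42 ± 0.22, so the deficit of this gene at 22 months and its excess at 15 months were not seen by the same probe.

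**Figure D4:**
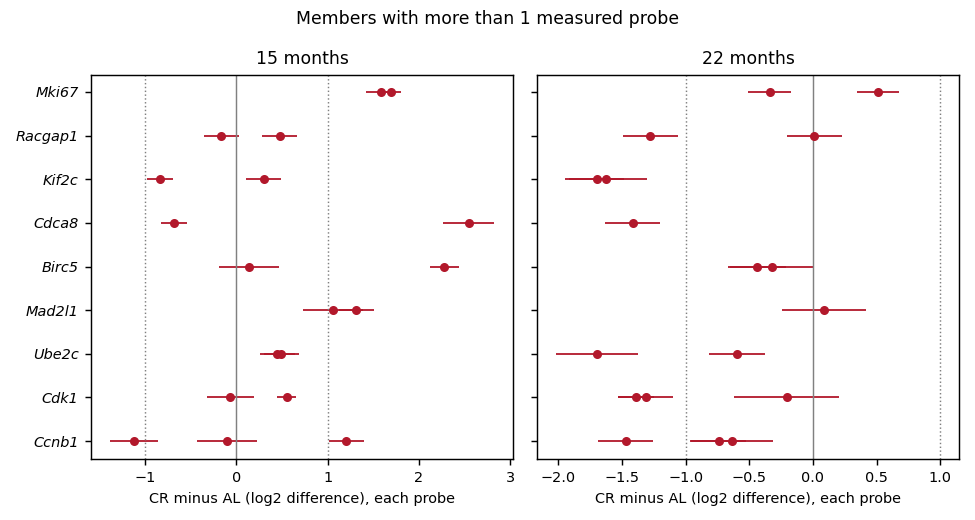
Differences between CR and AL (log2, horizontal axis) for each probe of the 9 members with more than 1 measured probe, at 15 and 22 months, with the spot error as bars and 2-fold as dotted lines. Birc5, Cdca8, Ccnb1 and Kif2c spread over more than 2-fold at 15 months. At 22 months Cdk1, Ube2c and Racgap1 did so, while both probes of Kif2c lie together near -1.66.

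Spindle proteins and kinesins included 1 member at least 2-fold higher with CR at 15 months, beside 2.16% of all genes. At 22 months 2 were at least 2-fold lower, beside 3.99% of all genes. Kif22, a chromokinesin that pushes chromosome arms, was at -2.02 with AL and 0.21 with CR at 15 months and at -0.89 and -1.31 at 22 months, with differences of 2.24 ± 0.16 and -0.43 ± 0.22. Nusap1, which bundles spindle microtubules near chromosomes, was highest in the old AL pool, at -1.57 against -3.03 with CR, and stood at -2.49 and -2.10 at 15 months, with differences of -1.46 ± 0.33 and 0.40 ± 0.26. Kif2c, a kinesin that takes microtubules apart at the centromere, had a pair of probes, at -2.24 and -0.82 with AL and -1.94 and -1.65 with CR at 15 months. They disagreed in direction at that age, at 0.30 and -0.83. At 22 months they stood at -1.22 and 0.18 with AL and at -2.85 and -1.52 with CR, and the means were -0.27 ± 0.12 and -1.66 ± 0.19. Kif20a and Spag5 lay just inside the 2-fold limit at 22 months, at -0.94 and -0.97. Hmmr differed by -0.78 at 15 months and by 0.09 at 22 months.

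Mki67, the gene of the proliferation marker Ki-67, was well above background on the 4 arrays of 15 and 22 months by both its probes. With AL they stood at -1.12 and -0.99 at 15 months and with CR at 0.46 and 0.71, a mean difference of 1.64 ± 0.10 (3.12-fold). At 22 months they were at -0.78 and -0.65 with AL and at -0.27 and -1.00 with CR, and their differences of 0.51 and -0.34 had opposite signs, for a mean of 0.08 ± 0.12. Top2a, the topoisomerase that untangles chromosomes, was not well above background on any of the 6 arrays. The same held for Aurkb, Cenpf and Kif11, so no level can be given for these 4 genes.

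Replication genes parted into nucleotide synthesis and the replication machinery. Rrm2, the regulated subunit of ribonucleotide reductase, was at -2.54 with AL and -0.32 with CR at 15 months and at -3.17 and -2.90 at 22 months, and its differences were 2.22 ± 0.16 and 0.27 ± 0.41. Tk1, the thymidine kinase of S phase, was at -2.36 and -0.49 and then at -2.96 and -2.34, so that it was higher with CR at both ages, by 1.87 ± 0.16 and 0.62 ± 0.34. Tyms, which makes thymidylate, differed by -0.09 and -0.03. Among the 8 genes of the helicase, the clamp and licensing, none reached 2-fold at either age, and the medians were 0.08 and 0.06. Mcm2, Mcm3, Mcm4, Mcm5 and Mcm6 ranged from -0.04 to 0.50 at 15 months and from -0.31 to 0.22 at 22 months. Mcm7 stood apart from these subunits of its own complex at 22 months, at -0.76, and so did the clamp. Pcna was at 2.02 and 1.94 at 15 months and at 2.90 and 2.01 at 22 months, with differences of -0.09 ± 0.10 and -0.88 ± 0.12. Gmnn, or geminin, which blocks renewed licensing, was higher with CR at both ages, at 1.21 and 1.98 and at 1.52 and 2.18, by 0.77 ± 0.10 and 0.66 ± 0.12.

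A further 3 mitosis genes were well above background in 1 pool of an age and have only a rough ratio there. The dim pool was taken at the probe's own signal or at the lowest level well above background on its array, whichever was higher. Because probes above that lowest level could also fail the background call, the ratio is no firm lower bound. At 15 months Kif4, a chromokinesin, was about 3.97-fold higher with CR, and Tpx2, which activates Aurora A on the spindle, about 4.77-fold higher. Ttk, the MPS1 checkpoint kinase, was about 1.38-fold lower with CR at 15 months and about 3.23-fold lower at 22 months. Kif4 was about 1.62-fold lower with CR at 22 months. At that age another probe of Tpx2 was measured in both pools and gave 0.43 ± 0.41. These ratios lie beside the 2-fold counts and are not in them.

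At 6 months, only 13 members were well above background with AL and 16 with CR, and 11 were measured in both pools. None was 2-fold higher or lower with CR, beside 1.58% of all genes that were higher and 1.15% that were lower. The differences ran from -0.21 for Ect2 to 0.80 for Racgap1, and 10 of 11 were above 0, as were 59.0% of all genes. Tyms, the brightest of the 11, had a processed signal of 4125 with AL and 3387 with CR. It read 851 and 420 at 15 months and 946 and 826 at 22 months, on arrays that were brighter as a whole. The cause was not tested. The median was 0.43 over 7 mitosis genes, beside 0.08 over all genes, and it was 0.15 when each array was scaled to its median or corrected with the normexp model. Pcna was at 0.79 with AL and 1.42 with CR, and Plk1 at -0.56 and -0.18. Another 5 members were well above background with CR alone. By the same rough ratio Spag5 was about 1.71-fold higher, Bub1 1.64-fold, Cdc20 1.60-fold, Pbk 1.45-fold and Cdk1 1.42-fold. Ube2c and Hmmr were above background with AL alone, without a usable ratio, and the other 33 members with neither diet. Of the 15 members at least 2-fold higher with CR at 15 months, 2 were measured in both young pools, Ect2 at -0.21 and Mad2l1 at 0.66. The others, among them Prc1, Cdca3, Cenpe, Rrm2 and Mki67, gave no signal well above background at 6 months with either diet.

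Genes of the cell cycle outside the list behaved in part like it. Of 46 other mitosis genes, 29 were measured at 15 months and 8 were at least 2-fold higher with CR, with a median of 0.57, and none was 2-fold lower. At 22 months 33 were measured, 10 were at least 2-fold lower and 1 was higher, with a median of -0.40 that was -0.01 with the normexp model. Of those measured at both ages, 8 were 2-fold higher at 15 months and 9 were 2-fold lower at 22 months, and Kif20b was in both sets (12.5% and 11.1%), at 1.78 ± 0.28 and -1.09 ± 0.33. At 15 months the condensin subunit Ncaph was higher by 1.76, Sgo1, which protects cohesion at centromeres, by 1.60, and Arhgap11a by 1.56. At 22 months Espl1, or separase, differed by -1.78 and Shcbp1 by -1.81. Of 33 other replication genes, 3 of 28 measured were 2-fold higher at 15 months, the licensing factor Cdt1 (1.09), the flap nuclease Fen1 (1.20) and Uhrf1 (1.25). None was 2-fold lower at either age, and at 22 months Pole and Rpa2 were higher by 1.02 and 1.56. Among 28 G1 cyclins, CDKs and E2F, DREAM and MuvB genes, none was past 2-fold at 15 months and E2f5 and Lin9 were lower at 22 months, at -1.23 and -1.11. Of 15 cell cycle inhibitors Cdkn2a alone was past 2-fold, at 1.07 at 15 months.

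**Figure D5:**
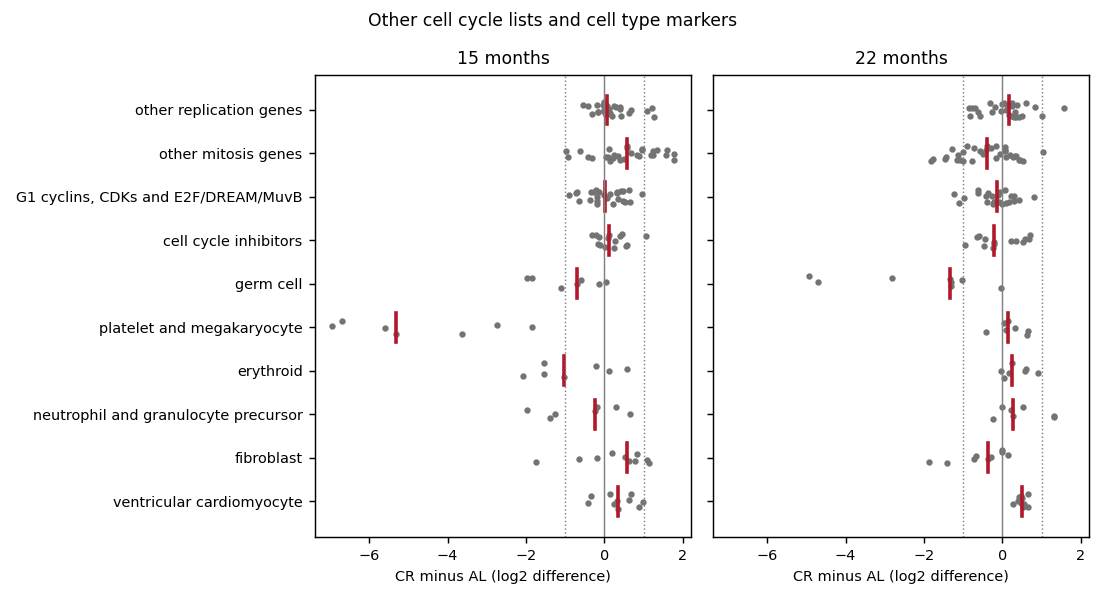
Differences between CR and AL (log2, horizontal axis) at 15 and 22 months for the measured genes of other cell cycle lists and of cell type marker lists, with a grey point per gene and the list's median as a red bar. Dotted lines mark 2-fold; platelet genes lie far to the left at 15 months and germ cell genes at 22 months.

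Markers of other cells and tissues moved between the same pools. All 10 ventricular cardiomyocyte markers, among them Myh6, Myl2 and Tnnt2, were well above background on every array. Their median difference was -0.62 at 6 months, with 9 of 10 lower with CR, 0.33 at 15 months, with 8 of 10 higher, and 0.49 at 22 months, with 10 of 10 higher, and their summed signal over the 75th percentile of the array was 1637 with AL and 2229 with CR at 22 months. At 22 months, 7 of 8 measured germ cell genes were at least 2-fold lower with CR, from -1.03 for Spo11 to -4.93 for Prm1, a protamine of sperm, and the summed signal of the list was 56.1 with AL and 20.4 with CR. At 15 months 3 of 7 were 2-fold lower, and the sums were 22.9 and 14.7. Of 10 fibroblast genes, 7 were higher and 3 lower with CR at 15 months, with a median of 0.57 and with Dpt at -1.73, and of 9 at 22 months 8 were lower, with a median of -0.36. Col1a1 and Col3a1, which encode chains of fibrillar collagen, were higher with CR at 15 months, at 0.84 and 1.08, and lower at 22 months, at -1.42 and -1.87. The sum over the 10 fibroblast markers was 114 with AL and 158 with CR at 15 months, and 113 and 73.8 at 22 months. At 15 months, all 7 measured platelet genes were lower with CR, with a median of -5.33. The sum over the 10 platelet genes on the array was 164 with AL and 7.89 with CR at that age, and 6.10 and 7.04 at 22 months. Erythroid genes had sums of 275 and 86.7 at 15 months and of 51.3 and 79.7 at 22 months. The neutrophil genes S100a8 and S100a9 were lower with CR at 15 months, at -1.97 and -1.39, and higher at 22 months, at 1.31 and 1.30. Over the 7 measured genes of that list the medians were -0.25 and 0.26, with 5 lower at 15 and 5 higher at 22 months. The sums over its 10 genes on the array were 10.2 and 7.39 at 15 months and 16.7 and 16.6 at 22 months. At 6 months they were 621 with AL and 869 with CR, with 3 genes well above background. Among these, Elane was at 9.23 and 9.72 in the young pools, above every cardiomyocyte marker. Tnni3, the highest of those markers in the young AL pool, was at 8.53. The endothelial gene Pecam1 was at 7.68 and 8.71 at 6 months and at 1.41 and 1.63 at 15 months. The cause was not tested. Medians of the macrophage and endothelial lists lay between -0.05 and 0.16 at both ages. The part of these cells in the values of the cell cycle genes was not tested.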

How the data were processed

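Per the labels, total RNA of each pool was amplified, labelled with Cy3 and hybridised to 1 array, and the submitters' processing notes name Agilent Feature Extraction 11.0.1.1. The deposited scanner tables hold an intensity per spot, background-subtracted by that software, with quality flags (unit: processed signal). The authors also deposited log2 values. How they were normalized, per the sources used here, is not given, and each column has a median of 4.77, and their r with quantile-normalized scanner values was 0.985 to 0.998. They served as an alternative. Log2 processed signals minus the array's 75th percentile were used, without control spots and spots with an outlier flag, and replicate spots were averaged. Both arrays of a comparison had to show at least 50% of a probe's spots well above background, and the kept probes of a gene were averaged. The tables have no column of gene names, so members were found by RefSeq accession (27234 of 28684 matched to symbols of GRCm38.p6). The spot error comes from replicated probes, with up to 10 spots each, that were well above background on an array, by 4 classes of signal. Before that filter, 399 replicated probes were counted on the 15-month AL array. With 1 array per group no test was made, and a fold of 2, the threshold of the study's methods, was used to count genes. The number of arrays limits the precision. Per-array values were given for members past 2-fold at 15 or 22 months and for Mki67, Top2a, Pcna, Ccnb1, Cdk1 and Gmnn, and from other lists at most 6 genes past 2-fold. Members, lists and this rule were chosen with earlier results of these data known. Python 3.11.15, R 4.3.3 and limma 3.58.1 (normexp, offset 50) were used, and the counting of 2-fold genes was tested on simulated data.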

Additional observations from a re-analysis of the deposited data

Results flagged for a closer look

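The median difference between CR and AL of the mitosis genes was 0.54 at 15 months and -0.85 at 22 months, so that the later value minus the earlier one was -1.39, and minus the value at 6 months it was -1.28. Aurka moved past 2-fold in opposite directions, and its difference at 22 months minus that at 15 months was -2.36. These were marked because the effects of diet in 2 age groups had opposite signs. The difference between ages was not tested, since each value rests on 1 array per group, and the list had been picked for opposite directions at 15 and 22 months. Only 7 mitosis genes were measured in both young pools.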

How the results depend on the processing

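The medians and 2-fold counts of the members, their gene differences, and the medians of the other cell cycle and germ cell lists were recomputed with median scaling, quantile normalization, normexp background correction, the deposited log2 values, no filter on dim probes, only probes above background on the 4 arrays of 15 and 22 months, the median of all genes subtracted, and the brightest probe of each gene. Naming by accession was planned as an alternative and became the setting used, so it was not run separately. For 27 gene differences past 2-fold, the 8 alternatives gave 216 values, of which none changed sign and 201 stayed past 2-fold. Of these values, 44 moved by more than the median spot error of the members at that age. Without a filter, 5 members were higher and 2 lower at 6 months, 2 were lower at 15 months, and the mitosis median at 22 months was -0.55. With the normexp model 4 members were lower at 22 months, and the mitosis medians were 0.15 at 6 months and -0.38 at 22 months, and the replication medians 0.12 at 6 months and 0.38 at 15 months. Median scaling gave 0.15 for mitosis and 0.055 for replication genes at 6 months. With the brightest probe 2 members were lower at 15 months. With the median of all genes subtracted, the replication median at 22 months turned to -0.030. The cause was not tested. Median scaling moved the median of all genes from 0.08 to -0.21 at 6 months and from 0.09 to 0.22 at 15 months, and normexp moved it to 0.20 at 15 months. Members that lost 2-fold under some alternative were Aurka (5 of 8 kept it), Cdca8, Mad2l1, Nuf2 and Ube2c (6 each), and Bub1b, Kif2c, Nusap1 and Ect2 (7 each). Other marker lists, the rough ratios of members above background in only 1 pool, and counts of the highest array were not recomputed. Among other lists, medians of the G1, inhibitor, germ cell, other mitosis and other replication genes at 6 months, and of the G1 and other replication genes at 15 months, changed sign under some alternative. No paired analysis was possible because each group has 1 array, and for the same reason no array could be left out. Genes near background, most members at 6 months among them, are limited by signal.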
